A study of Homo sapiens with 2 samples.

Results

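Glucose transport, glycolysis and the fate of pyruvate were followed through 33 genes, chosen by name as the transporters, enzymes and regulators of these steps. The choice was made with earlier results of these data known. Of the 33, 31 had a probe set annotated to that gene alone, out of 22465 genes on the array with a probe set of their own. SLC16A1 and SLC16A3, the monocarboxylate carriers that take lactate across the plasma membrane, were not analysed here. The cells were MDA-MB-231, a human triple-negative breast cancer line long established in culture, in 2 stable derivatives grown alike in high-glucose medium with serum. The control cells carried the pLKO.1 vector, and the other cells carried pLKO.1-shSREBP, a short hairpin RNA against SREBP1, the transcription factor of fatty acid synthesis encoded by SREBF1. Both derivatives thus carried a pLKO.1 construct, and the labels do not say whether each is a clone or a pool, or how many cultures were grown. The design asked which genes differ between them. Each derivative was read on 1 array as RMA log2 signals, so no test was possible and only the size of each difference is given. Below, the values of a gene are its log2 signals, first in the control cells and then in the cells labelled knockdown.

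Glycolysis turns glucose into pyruvate in the cytosol. Glucose enters through SLC2A carriers, hexokinase traps it as glucose 6-phosphate, phosphofructokinase commits it, and the later enzymes return ATP and NADH. Pyruvate is then either reduced to lactate by lactate dehydrogenase or oxidised in mitochondria by the pyruvate dehydrogenase complex, which the PDK kinases switch off. Tumour cells often send much of their pyruvate to lactate even with oxygen present. The hypoxia factor HIF1 is known to raise many genes of this route, and the DNA it binds holds the core ACGTG or GCGTG. Citrate made from oxidised pyruvate feeds the fatty acid synthesis that SREBP1 drives.

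SREBF1, the target of the hairpin, had signals of 5.13 and then 5.29, so the target RNA was not lower under the knockdown label (difference 0.15). Directions below refer to that label. SREBF2, its paralogue, differed by 0.10. A gene was counted as measured when the higher of its signals was above 3.21 log2 units, the 95th percentile of 359 olfactory receptor genes. All 31 genes of glucose use with a probe set passed, among 15697 genes in all, whose median difference was 0.012 log2 units with an SD of 0.19. As a check of the cells, all 7 markers listed as present in this line, such as VIM and AXL, were above the floor, and ESR1 and PGR, the steroid receptors it lacks, were below it. Of 7 measured markers listed as low or absent, however, the other 5 were above the floor in control cells, from CDH1 at 3.32 to KRT19 at 7.26, and EPCAM read 5.14 in both. Of 9 markers of blood, endothelial and liver cells, 7 had a probe set of their own. PTPRC, HBB, PECAM1 and ALB were below the floor. CD14, CD3E and CDH5 were above it, between 3.39 and 4.31 in control cells. KRT19 and CD14 were lower on the array labelled knockdown, with differences of -0.46 and -0.36 log2 units, while CD3E and CDH5 differed by 0.13 and 0.038, and their part in the results below was not tested.

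The members differ in the DNA before their start sites, which is shown for the 6 genes with the lowest differences and for GAPDH, which hardly differed. The sequences are the 250 bases before an annotated start in RefSeq (GRCh38.p14), and capitals mark the HIF1 core on either strand (ACGTG or GCGTG, read in either direction). PDK1 has 2 annotated starts, and of the window before the downstream start only the last 30 bases, which hold its cores, are given.
SLC2A12, chr6:134052625-134052874, minus strand: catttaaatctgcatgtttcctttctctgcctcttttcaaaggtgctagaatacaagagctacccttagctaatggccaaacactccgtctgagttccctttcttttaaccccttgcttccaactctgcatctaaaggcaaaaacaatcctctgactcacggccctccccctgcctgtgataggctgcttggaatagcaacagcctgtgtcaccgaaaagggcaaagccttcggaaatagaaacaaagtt
PDK1, chr2:172555123-172555372, plus strand: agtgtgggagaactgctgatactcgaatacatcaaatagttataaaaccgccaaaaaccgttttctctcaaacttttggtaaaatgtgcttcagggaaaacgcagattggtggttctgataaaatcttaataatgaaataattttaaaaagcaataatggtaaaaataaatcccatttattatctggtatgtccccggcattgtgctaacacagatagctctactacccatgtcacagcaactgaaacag
PDK1, chr2:172556060-172556089, plus strand: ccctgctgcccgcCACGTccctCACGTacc
PFKFB4, chr3:48556804-48557053, minus strand: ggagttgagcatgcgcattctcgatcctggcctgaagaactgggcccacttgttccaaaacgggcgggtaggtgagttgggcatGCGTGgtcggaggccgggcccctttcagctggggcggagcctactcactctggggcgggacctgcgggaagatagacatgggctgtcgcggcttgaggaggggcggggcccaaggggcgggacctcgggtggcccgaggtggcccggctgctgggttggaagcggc
ENO2, chr12:6914330-6914579, plus strand: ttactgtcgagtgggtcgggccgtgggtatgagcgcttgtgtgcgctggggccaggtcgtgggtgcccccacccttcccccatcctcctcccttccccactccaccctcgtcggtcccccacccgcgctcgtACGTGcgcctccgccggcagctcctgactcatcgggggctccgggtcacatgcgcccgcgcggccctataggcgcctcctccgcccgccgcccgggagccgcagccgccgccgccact
PGK1, chrX:78103998-78104247, plus strand: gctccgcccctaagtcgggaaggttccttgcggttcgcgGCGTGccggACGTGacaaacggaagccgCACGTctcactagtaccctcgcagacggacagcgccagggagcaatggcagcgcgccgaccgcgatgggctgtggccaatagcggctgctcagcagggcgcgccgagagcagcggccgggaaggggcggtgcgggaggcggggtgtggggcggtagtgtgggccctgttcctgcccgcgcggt
ALDOC, chr17:28576896-28577145, minus strand: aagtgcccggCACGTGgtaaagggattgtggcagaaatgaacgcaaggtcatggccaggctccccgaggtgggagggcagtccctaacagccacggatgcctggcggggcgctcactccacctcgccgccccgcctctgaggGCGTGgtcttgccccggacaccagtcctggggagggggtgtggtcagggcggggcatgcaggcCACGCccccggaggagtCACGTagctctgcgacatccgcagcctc
GAPDH, chr12:6535014-6535263, plus strand: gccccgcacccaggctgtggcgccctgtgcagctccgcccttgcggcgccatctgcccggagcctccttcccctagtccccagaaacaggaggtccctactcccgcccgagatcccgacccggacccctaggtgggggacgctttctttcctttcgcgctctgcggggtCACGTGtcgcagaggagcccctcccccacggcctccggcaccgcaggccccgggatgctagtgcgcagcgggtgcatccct

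A core was present in 29 of 53 windows of the 29 measured members found in the promoter table, or 54.7%, against 43.2% of all 35116 windows of this length. Both strands were searched, so the palindrome CACGTG counts as 2 cores. The palindrome itself was found in 8 of the 53 windows, or 15.1% against 6.34% of all windows. The members' windows were also richer in G and C, with a median of 68.4% against 58.0%. ALDOC held the most cores among the 7 genes shown, with 5, and the window of SLC2A12 held none. An SREBP element, TCACNCCAC on either strand, was found in 1 of the 53 windows, that of ALDOC, or 1.89% against 0.883% of all windows. These matches are letters in a window and not measured binding sites.

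**Figure D1:**
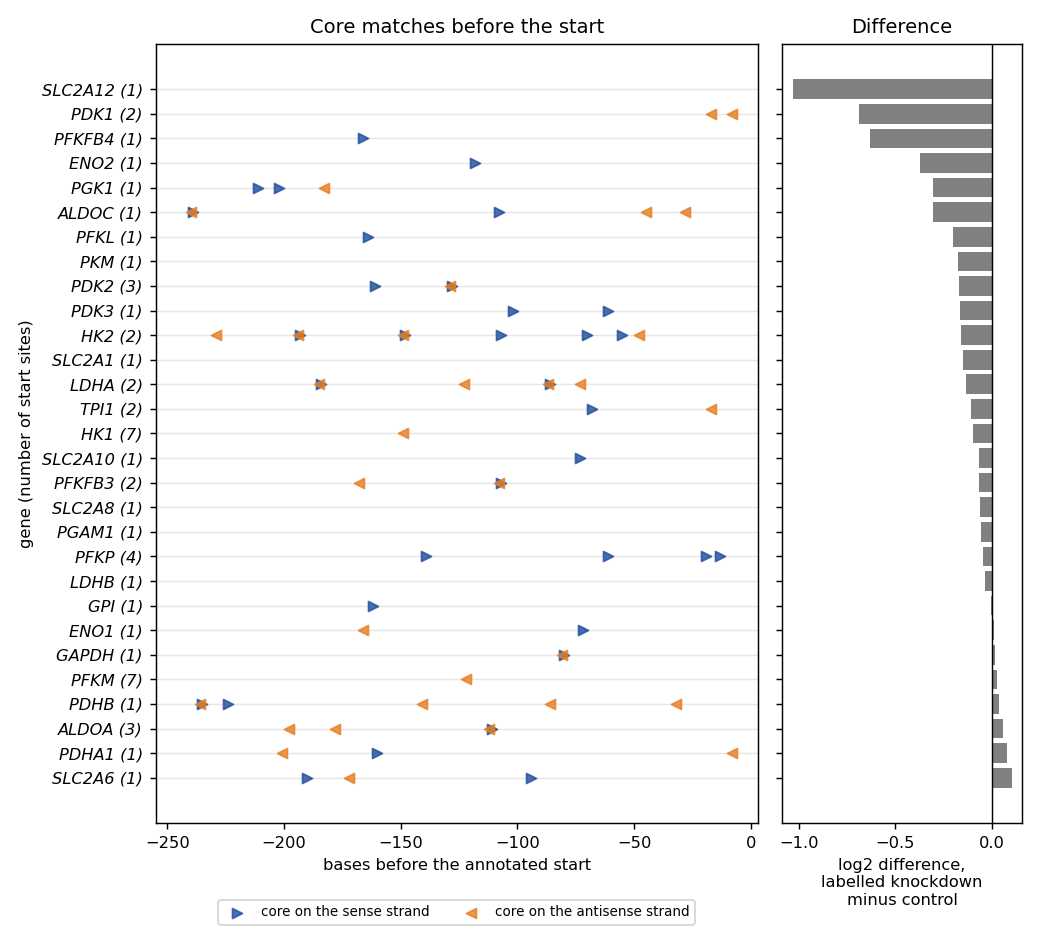
Positions of HIF1 cores in the 250 bases before each annotated start (left; x axis in bases, genes ordered by difference, number of starts in brackets) beside the log2 difference of each gene (right). Genes with cores occur along the whole range, and SLC2A12, the lowest at -1.03, has none.

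The members were also set out by presence of a core, and the split was not tested. A gene with more annotated starts had more windows in which a core could occur: HK1 and PFKM each held one in 1 of 7 windows. The 23 genes with a core in any window had a median difference of -0.096 log2 units, with 16 lower on the array labelled knockdown. The 6 genes without a core, SLC2A1, SLC2A8, SLC2A12, PGAM1, PKM and LDHB, had a median of -0.10 and all 6 were lower. Of all genes above the floor, 41.2% were lower. The plot of core positions gives the values gene by gene.

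Across the pathway, most genes were slightly lower on the array labelled knockdown and 3 were lower by at least 1.5-fold. Of the 31 measured members, 24 were lower, or 77.4% against 41.2% of all genes above the floor, and 7 were higher, against 52.2% of all genes. Their median was -0.096 log2 units, against 0.012 for all genes. SLC2A12, PDK1 and PFKFB4 were lower by at least 1.5-fold, which is 9.68% of the members against 0.752% of all genes, and none was higher by that much, against 0.382% of all genes. At 2-fold SLC2A12 was the 1 member called, against 0.115% of all genes, and that call rests on a signal below the floor: with that signal set to the floor its difference was -0.995, short of 2-fold. At a looser threshold of 0.32 log2 units ENO2 joined them, giving 4 members or 12.9% against 4.29%, and the remaining members differed by less. Without the 3 lowest genes, an alternative chosen after seeing the data, 21 of 28 were lower and the median was -0.067.

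**Figure D2:**
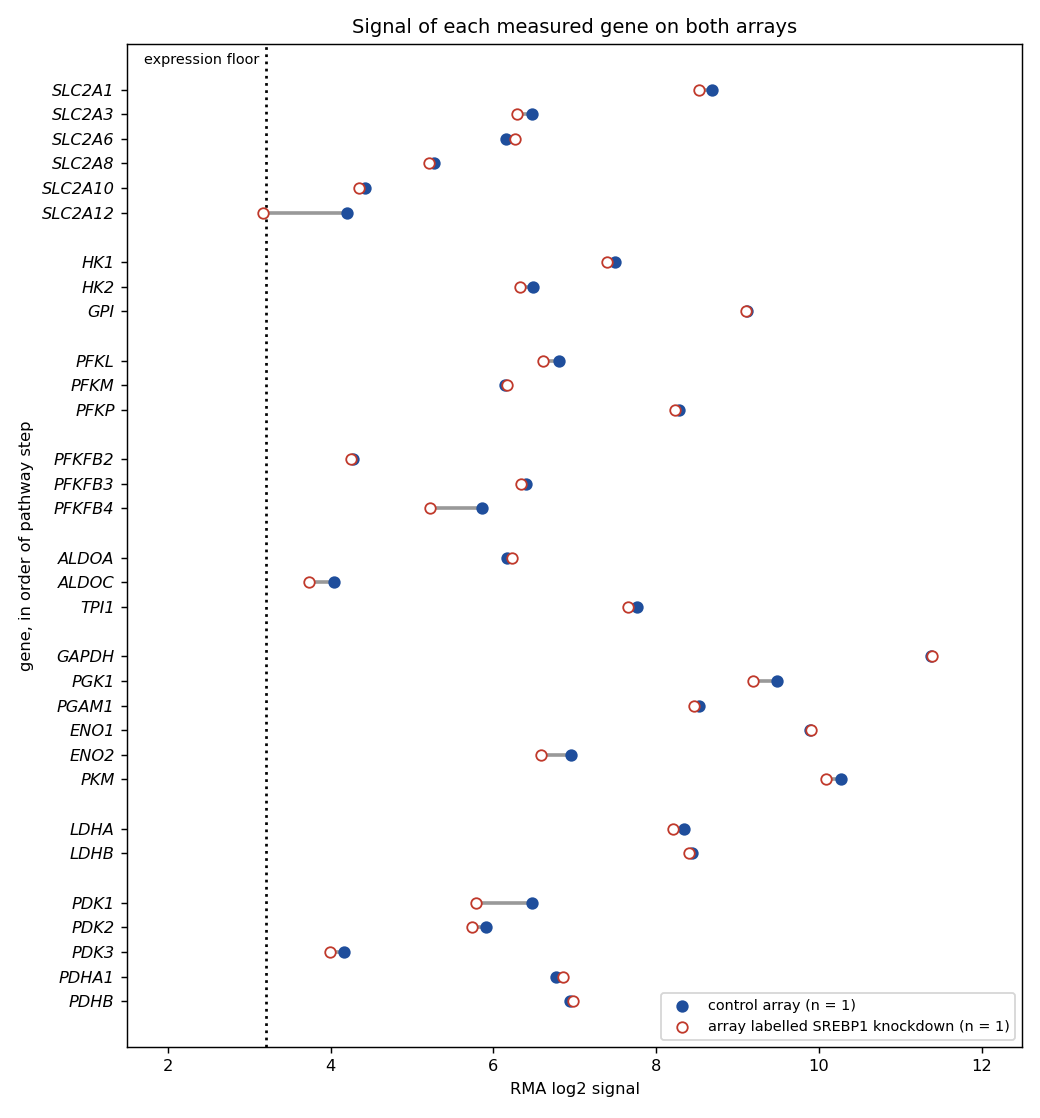
RMA log2 signal (x axis) of the 31 measured genes in order of pathway step, on the control array (filled) and the array labelled knockdown (open), 1 array each. The dotted line is the expression floor of 3.21. Long gaps are seen at SLC2A12, PFKFB4 and PDK1, and SLC2A12 drops under the floor.

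Among the glucose transporters, 5 of 6 were lower and SLC2A12 alone was beyond 1.5-fold. SLC2A12, which encodes the facilitative carrier GLUT12, had a signal of 4.20 in control cells and of 3.17 in the cells labelled knockdown. The second value is under the floor, so the difference of -1.03 as read is best taken as a bound of -0.995 or lower. None of the 500 genes nearest in signal had a lower difference. SLC2A1, the GLUT1 carrier that supplies most cultured cells, read 8.68 and 8.53, or 1.11-fold lower. SLC2A3, the high-affinity GLUT3, read 6.47 and 6.28, or 1.14-fold lower. These 2 differences were each smaller than the SD of genes of the same signal, which was 0.20 for SLC2A1 and 0.21 for SLC2A3. SLC2A8, a mostly intracellular carrier, and SLC2A10, the gene of arterial tortuosity syndrome, differed by -0.058 and -0.068 log2 units. SLC2A6, a lysosomal carrier, had the highest difference of all members at 0.10, from 6.16 to 6.26.

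The hexokinases and the isomerase after them had no member beyond 1.5-fold or beyond the SD of genes of its level. HK1, the housekeeping hexokinase, read 7.49 and 7.39, and HK2, the inducible form often raised in tumours, read 6.49 and 6.33. HK2 differed by -0.16 log2 units and HK1 by -0.096, within an SD of 0.22 and 0.20 for genes of their level. GPI, which turns glucose 6-phosphate into fructose 6-phosphate, was level at 9.11 on both arrays.

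Of the phosphofructokinase subunits, the liver form PFKL was lowest and the muscle form PFKM did not follow. PFKL read 6.81 and 6.60, or 1.15-fold lower. PFKP, the platelet form, differed by -0.047 log2 units and PFKM by 0.028. All 3 lay within an SD of genes of their level.

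The enzymes that set fructose 2,6-bisphosphate, the main activator of phosphofructokinase, were uneven. PFKFB4 had a signal of 5.86 in control cells and of 5.23 in the cells labelled knockdown, or 1.55-fold lower. Among the 500 genes nearest in signal, whose SD was 0.18, its difference was at the 0.6th percentile. PFKFB3, the isoform with the strongest kinase bias, read 6.40 and 6.33, a difference of -0.065. PFKFB2, the heart isoform, read 4.27 and 4.25, a difference of -0.015. PFKFB4 was therefore the only one of these 3 whose signal differed by more than the SD of genes of its level.

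**Figure D3:**
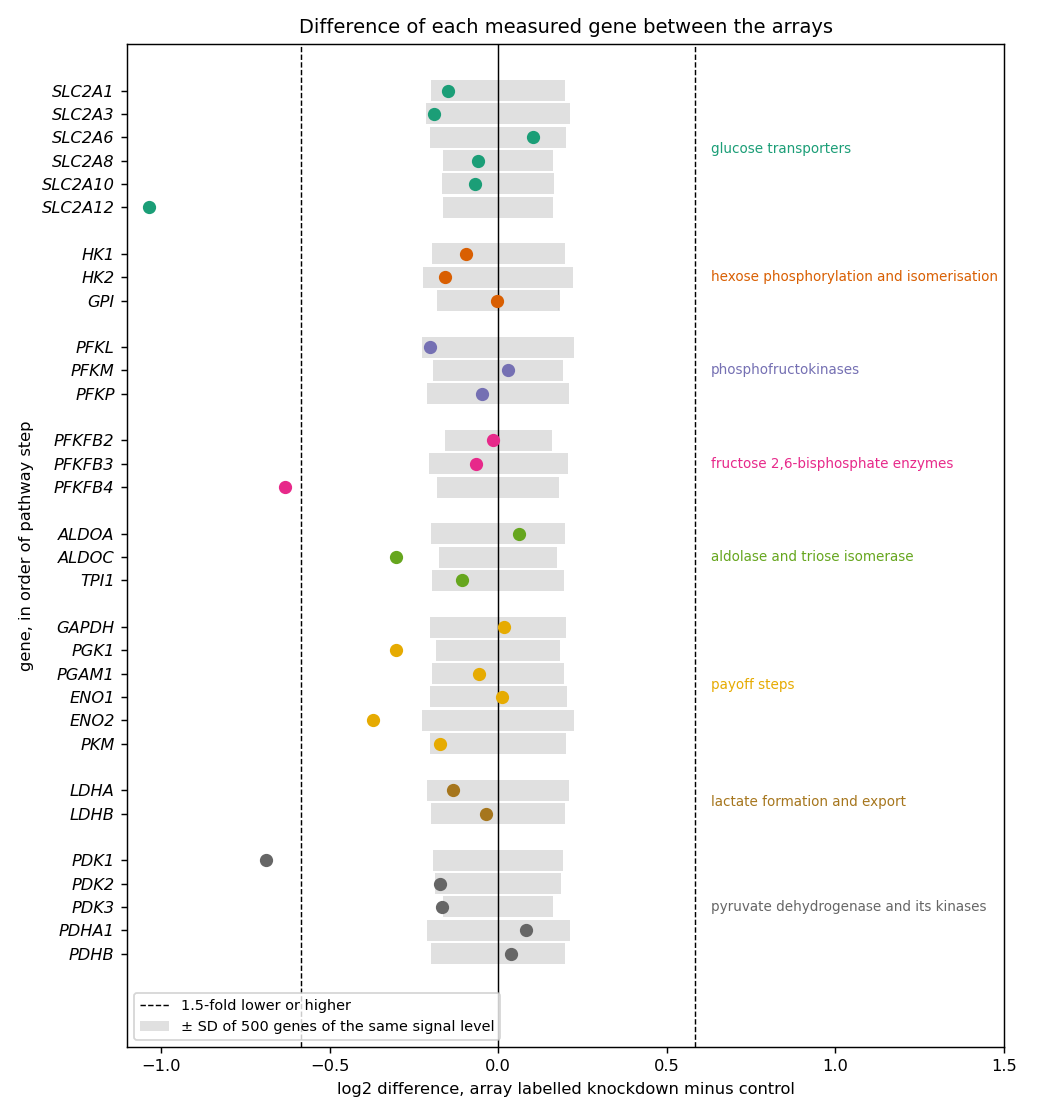
Log2 difference, array labelled knockdown minus control (x axis), of the 31 measured genes by pathway step. Grey bars are plus or minus the SD of the 500 genes nearest in signal, and dashed lines mark 1.5-fold. SLC2A12, PFKFB4 and PDK1 lie beyond the left line. ALDOC, PGK1, ENO2 and, barely, PDK3 lie between their grey bars and that line.

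Among the later steps of glycolysis, 3 genes lay outside that SD without reaching 1.5-fold. ENO2, the neuronal enolase, read 6.95 and 6.58, or 1.29-fold lower. PGK1, the first ATP-making step, read 9.49 and 9.19, and ALDOC, the brain aldolase, read 4.03 and 3.73. PGK1 and ALDOC were each 1.23-fold lower. Among the 500 genes nearest in signal, PGK1 and ENO2 were at the 4.0th percentile and ALDOC was at the 3.4th.

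The ubiquitous paralogues of ENO2 and ALDOC were level. ENO1, the common enolase, read 9.89 and 9.90, and ALDOA, the main aldolase outside liver and brain, read 6.17 and 6.23. The difference was thus -0.37 log2 units for ENO2 against 0.011 for ENO1, and -0.30 for ALDOC against 0.061 for ALDOA. ENO1 turned to -0.00074 with the median of all genes subtracted and to -0.056 after a curve of the difference on the signal was subtracted. GAPDH, which yields NADH and is a common reference gene, read 11.37 and 11.39, a difference of 0.018 that turned to -0.050 with the same curve.

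TPI1, which interconverts the triose phosphates, differed by -0.11 log2 units and PGAM1, the phosphoglycerate mutase, by -0.058. PKM, the pyruvate kinase that makes pyruvate and ATP, read 10.26 and 10.09, or 1.13-fold lower. These 3 were within the SD of genes of their level. The probe set does not tell the splice forms of PKM apart here.

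**Figure D4:**
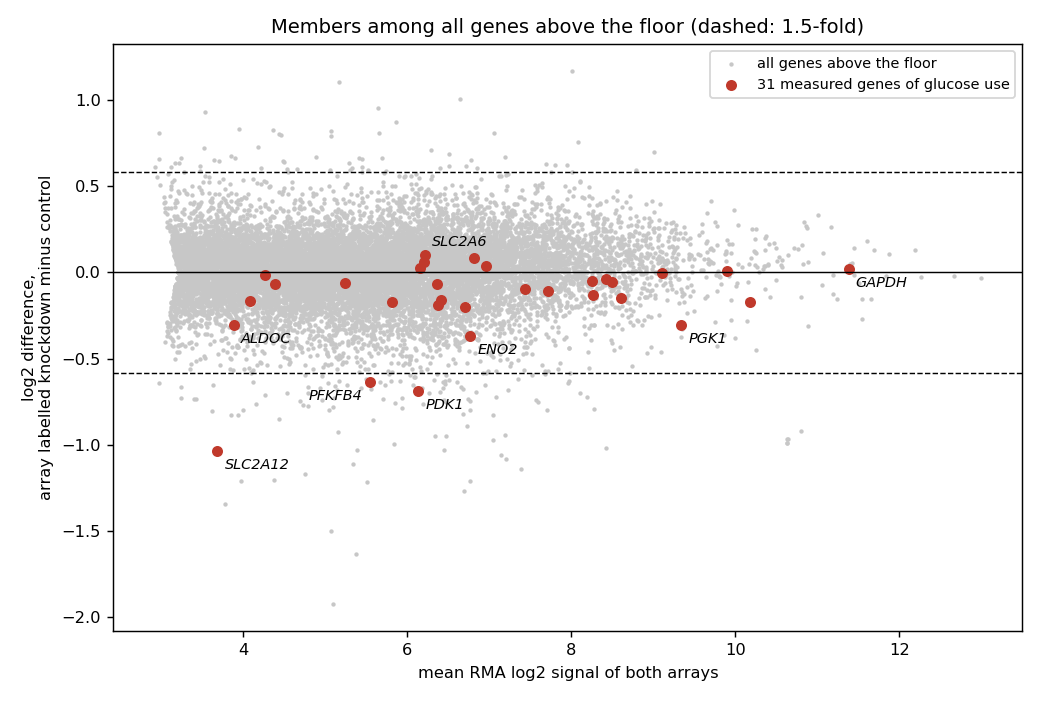
Log2 difference (y axis) against mean RMA log2 signal (x axis) for all 15697 genes above the floor (grey) and the 31 members (red), with dashed lines at 1.5-fold. Of the members, 24 of 31 lie below 0, and SLC2A12, PDK1 and PFKFB4 lie under the lower line.

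At the pyruvate branch, PDK1, a kinase that switches off pyruvate dehydrogenase, was the only one of 5 members beyond 1.5-fold. PDK1 had a signal of 6.48 in control cells and of 5.79 in the cells labelled knockdown, or 1.61-fold lower. Its difference was at the 0.2th percentile of the 500 genes nearest in signal, whose SD was 0.19. PDK2, the widely expressed kinase, read 5.90 and 5.73, and PDK3 read 4.16 and 3.99. These were 1.13-fold and 1.12-fold lower, and PDK3 alone of these 2 exceeded the SD of its level, at -0.166 against 0.164. PDK4, the fasting-induced kinase, was below the floor on both arrays. PDHA1, the catalytic subunit that the kinases phosphorylate, read 6.77 and 6.86, and its partner PDHB read 6.94 and 6.98. Both were slightly higher, by 0.082 and 0.039 log2 units.

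LDHA, which reduces pyruvate to lactate, read 8.34 and 8.20, or 1.10-fold lower. LDHB, the isoform that favours the reverse step, differed by -0.035 log2 units. Both lay within the SD of genes of their level, 0.21 and 0.20.

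A further list of mitochondrial pyruvate entry and the rest of the pyruvate dehydrogenase complex had 10 measured genes. It also held PCK2 and ACLY, which do not act on pyruvate itself and differed by -0.030 and 0.0061. Of the 10, 8 were lower, or 80.0% against 41.2% of all genes, with a median of -0.14 log2 units and none beyond 1.5-fold. PDHX, which anchors the E3 component in the complex, was lowest at 5.99 and 5.54, or 1.37-fold lower. PDP1, the phosphatase that reverses the PDK kinases, was 1.23-fold lower, from 7.46 to 7.16. DLD, the E3 component itself, went from 7.40 to 7.13, a difference of -0.26. PDPR, which restrains the phosphatase, was highest at 0.16. MPC1 and MPC2, which together form the carrier that brings pyruvate into mitochondria, differed by -0.17 and -0.0016.

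Neighbouring sugar pathways were mixed. In the pentose phosphate list 3 of 7 measured genes were lower, or 42.9% against 41.2% of all genes, and 4 were higher. The median was 0.15 log2 units (0.080 after the curve was subtracted), from SHPK at -0.21 to the ribose phosphate isomerase RPIA at 0.36. Glycogen and hexosamine genes had 10 of 18 lower, or 55.6% against the same 41.2%. Their median was -0.067, from the glycogen synthase GYS1 at -0.30 to UAP1, which makes UDP-N-acetylglucosamine, at 0.35. Other isoforms and accessory genes of the same glycolytic steps had 10 of 26 lower, or 38.5%, near that share of all genes. Their median was 0.051, from HKDC1, a hexokinase-like gene, at -0.13 to PGAM5, a mitochondrial phosphatase of the mutase family, at 0.32. No gene of these 3 lists was beyond 1.5-fold, and whether the lists differ from the members was not tested.

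Of 22 genes that are members and textbook HIF1 targets, 21 were measured. Of these, 18 were lower, or 85.7% against 41.2% of all genes. Their median was -0.15 log2 units, against 0.012 for all genes. Of the 10 measured members outside that list, 6 were lower, or 60.0% against the same 41.2%, with a median of -0.025. HIF1A itself, the oxygen-regulated subunit, read 9.01 and 8.47, a difference of -0.54. EGLN1 and EGLN3, the oxygen sensors that mark HIF1 for destruction, were 1.38-fold and 1.39-fold lower. Among the 19 measured regulators, 8 were lower, or 42.1% against 41.2% of all genes, and 11 higher. Their median was 0.084, or 0.037 after the curve was subtracted, and none was beyond 1.5-fold. MYC, another activator of glycolytic genes, differed by 0.20 and TXNIP, a glucose-induced brake on uptake, by 0.084, while ARRDC4 was highest at 0.28. HIF1 targets outside glycolysis had 13 of 15 lower, or 86.7% against 41.2% of all genes, with a median of -0.47. EGLN3 is counted in this list and among the regulators. Of the 15, 7 were lower by at least 1.5-fold, or 46.7% against 0.752%. These were LOX at -0.85, DDIT4, INSIG2, CA12, BNIP3, NDRG1 and BNIP3L at -0.59, while ANGPTL4 went the other way at 0.79. HIF1 protein, oxygen and cell density were not measured, and their part in these differences was not tested. Both HIF1 lists were chosen with earlier results of these data known, so their shares only describe these arrays.

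**Figure D5:**
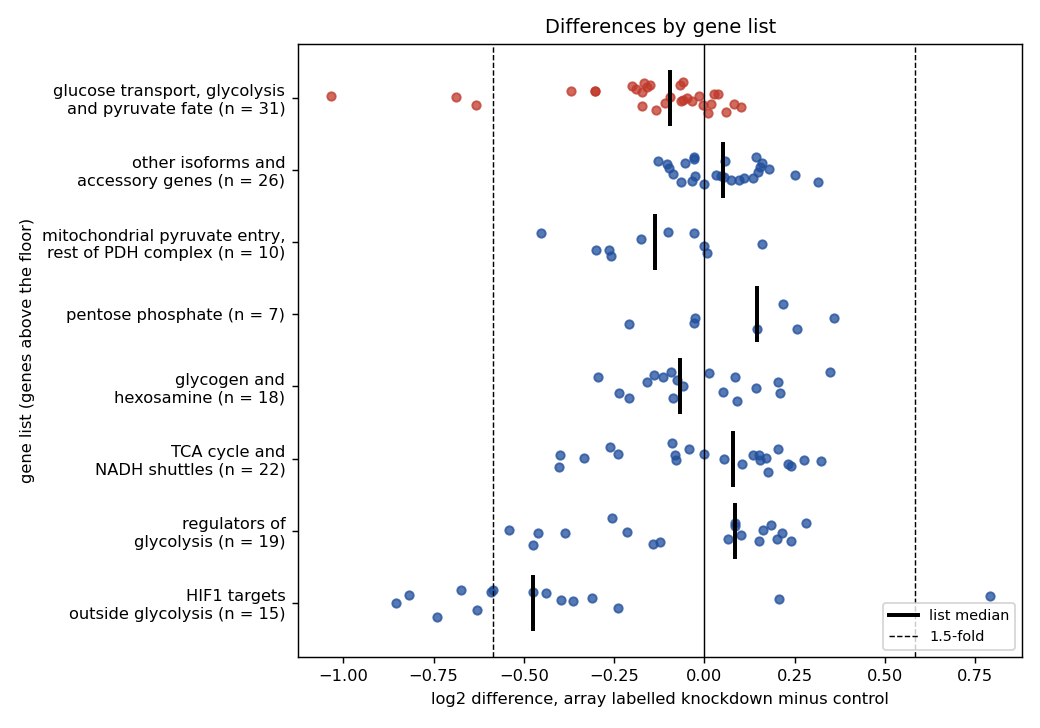
Log2 difference, array labelled knockdown minus control (x axis), of each measured gene by list, with a black bar at the list median and dashed lines at 1.5-fold. The members centre on -0.096, the pentose phosphate genes on 0.15 and the HIF1 targets outside glycolysis on -0.47.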

How the data were processed

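Total RNA of each derivative was labelled as biotinylated cDNA and hybridised to 1 array, per the labels' protocols. The authors deposited a log2 signal for each probe set; the submitters' processing notes name RMA and Affymetrix Expression Console, and no source used here gives a version or genome build. RMA scales the arrays to each other and tends to compress fold changes, and signals of different probe sets are not comparable as amounts. Of 70523 probe sets, 23781 carried the name of a single gene and were used, the highest mean standing for a gene with several. Symbols were updated through RefSeq (GRCh38.p14) only where this merged no genes.

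The measure was the array labelled knockdown minus control, called at 1.5-fold. With 1 array per group no test was made, and the number of arrays limits the precision. The SD and percentile of each gene came from the 500 genes nearest in mean signal. The members and lists were chosen with earlier results of these data known. All members are named. Of other lists, genes beyond 1.5-fold and the highest and lowest are named. HIF1A, EGLN1, EGLN3, MYC, TXNIP, PDP1, DLD, MPC1, MPC2 and PDK4 were added after their values were seen. So were GCKR, PGK2, GAPDHS, BSG, PCK2, ACLY and PPARGC1A. Alternatives subtracted the median difference or a lowess curve (fraction 0.3), averaged probe sets, or changed the floor or fold. The code was tested on simulated data. Software was Python 3.11.15 with matplotlib 3.10.9, statsmodels 0.14.6, pandas 2.3.3 and numpy 2.4.6.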

Additional observations from a re-analysis of the deposited data

How the results depend on the processing

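Under other scaling, probe set averaging, no floor or a floor on the mean, the count of members lower by at least 1.5-fold was 3 as before. Averaging could not change a member's difference, since each measured member has 1 probe set. Removing the floor could add no member, since all 31 had passed it. With the floor raised by 1 log2 unit it was 2, since SLC2A12 was then left out. No member was higher by 1.5-fold under these alternatives, and between 21 and 26 members were lower. At 2-fold the count was 1, SLC2A12, whose second signal is below the floor and which falls short of 2-fold with that signal set to the floor (-0.995). The members' median of -0.096 log2 units became -0.16 as a mean and -0.067 without SLC2A12, PDK1 and PFKFB4. The 93 member differences under the 3 scaling and averaging alternatives include those from averaging, which could not change. Of the 93, 3 changed sign. These were ENO1 to -0.00074 with the median subtracted, and ENO1 to -0.056 and GAPDH to -0.050 with the curve subtracted. The median of the 102 other pathway genes, 0.0091, turned to -0.0031 with the median subtracted, -0.0052 with the curve subtracted and -0.0025 as a mean. Among those genes none was lower by 1.5-fold, but 1, HIF1A, was after the curve was subtracted. At a threshold of 0.32 log2 units 8 of the 102 were lower, or 7.84% against 4.29% of all genes. At that threshold 3 of the 102 were higher, against 593 of all 15697 genes. No paired analysis was possible because each group has 1 array. With 1 array per group, differences between cultures, hybridisation and genotype cannot be told apart.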

Other observations

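Genes of the tricarboxylic acid cycle and the shuttles that carry NADH equivalents into mitochondria went both ways, in shares near those of all genes. Of 22 measured, 12 were higher, and 9 were lower on the array labelled knockdown, or 40.9% against 41.2% of all genes. Their median was 0.080 log2 units, or 0.033 after the curve was subtracted, and none was beyond 1.5-fold. CS, the citrate synthase that starts the cycle, was highest, from 8.15 to 8.47, a difference of 0.32. SDHC, a membrane subunit of succinate dehydrogenase, was lowest, from 7.44 to 7.04 or 1.32-fold lower. SLC25A12, an aspartate-glutamate carrier of the malate-aspartate shuttle, was also 1.32-fold lower, and SUCLA2, a subunit of succinyl-CoA synthetase, was 1.26-fold lower.

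A probe set annotated to ENO1-IT1, an intronic transcript of ENO1, read 5.34 in control cells and 4.81 in the cells labelled knockdown. Its difference of -0.53 was at the 1.6th percentile of the 500 genes nearest in signal, while the probe set of ENO1 itself differed by 0.011. SLC25A12, SUCLA2 and ENO1-IT1 were named after their values were seen.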
